A study of Rattus norvegicus with 8 samples.

Results

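The cytosolic ribosomal protein genes of the rat Achilles tendon are described here, before and immediately after running. They were taken as every protein-coding row whose symbol starts with Rpl or Rps followed by a number, together with the stalk proteins and Rpsa, and without the Rps6k kinases, of which 9 rows were kept out. This gave 90 rows under 85 symbols, out of 15590 rows in all. The symbols Rpl21, Rpl32, Rpl7a and Rps27a had more than 1 row each, and 13 further rows carried the symbol of a paralog or copy, such as Rpl3l or Rps19l2. The rule also took Rps19bp1, which encodes a protein that binds Rps19 and is not itself a ribosomal protein. All 90 rows passed the filter on low values.

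RNA was sequenced in 8 libraries from the right Achilles tendons of wild-type Sprague Dawley (SD) rats, 8 to 10 weeks old. The 4 libraries of the 0 h p.r. group (post-run) came from rats killed directly after 1 h of uphill treadmill running. The 4 libraries of the naïve control (NC) group came from rats that did not run. The labels have the controls killed immediately as well, whereas by the methods of the treadmill study the cage controls were killed together with a 12-hour group. Whether each library came from 1 animal is not stated in the labels, so p-values measure the spread between these libraries. Polyadenylated RNA of whole tendon was measured, in which fewer cells of a type and less RNA per cell cannot be told apart.

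Ribosomal proteins build the large (Rpl) and small (Rps) subunits of the ribosome, and each is needed in about equal number. Their mRNAs are abundant and short. Most begin with a run of pyrimidines directly at the start of transcription, the 5′ terminal oligopyrimidine (TOP) motif, through which mTOR signalling and Larp1 govern their translation. They are therefore often treated as a unit whose members move together, and their synthesis is a large part of the cost of growth.

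The starts of 6 members that followed the others are shown, chosen because they hold the pyrimidine run for which these mRNAs are known. Other members that followed as closely, such as Rps16, Rpl26 and Rps3a, had runs of 6, 4 and 7 pyrimidines. Each line gives 15 bases before and 15 bases from the annotated start (RefSeq, build GRCr8), 5′ to 3′ on the gene's strand, with the longest pyrimidine run in capitals.
Rplp0 (chr12:46718376-46718405, minus strand): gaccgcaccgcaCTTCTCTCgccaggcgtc
Rpl35 (chr3:43165907-43165936, minus strand): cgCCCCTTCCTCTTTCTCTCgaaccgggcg
Rps21 (chr3:187724023-187724052, plus strand): gaacgagccaCTTCCTTTCTgtgttctccg
Rpl10 (chrX:157205835-157205864, plus strand): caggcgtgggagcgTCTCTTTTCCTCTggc
Rpl19 (chr10:83519049-83519078, plus strand): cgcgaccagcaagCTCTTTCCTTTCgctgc
Rps15 (chr7:10068101-10068130, minus strand): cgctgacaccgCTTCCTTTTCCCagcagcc

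For contrast, the following 4 members departed from the others in these libraries, as described further on, and their starts are given in the same way.
Rps6 (chr5:106420526-106420555, minus strand): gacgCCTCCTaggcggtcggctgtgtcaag
Rps9 (chr1:74430423-74430452, minus strand): tccggcggccacgTTTCTCTTTgtcacggg
Rpl38 (chr10:100200420-100200449, plus strand): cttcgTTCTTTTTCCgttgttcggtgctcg
Rpl7l1 (chr9:21695703-21695732, plus strand): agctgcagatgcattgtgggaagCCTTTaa

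Of the 81 members with 1 row per symbol, 60 were matched by symbol to a promoter of 300 bases. A run of at least 8 pyrimidines within 20 bases of the start was held by 40 of these 60 (66.7%), against 15.5% of the 33469 promoters in the table. The 65 promoters of mitochondrial ribosomal proteins (Mrpl and Mrps genes), which serve the ribosome of the mitochondrion, held such a run in 16.9%. The motif CCGGAAG, searched on both strands over the whole 300 bases, was present in 17 of the 60 members (28.3%), in 32.3% of the mitochondrial ribosomal protein promoters and in 8.75% of all promoters. AAGATGG, searched likewise, was present in 8 of the 60 (13.3%), in 26.2% of the mitochondrial ribosomal protein promoters and in 7.01% of all promoters. The reverse complement of CCGGAAG shares letters with a pyrimidine run, so these counts overlap. Departing members held the run as well, as in Rps9 and Rpl38. Among the matched members that followed the median member closely (a residual SD, defined further on, below 0.1) 26 of 36 held it (72.2%), and among those that departed (above 0.3) 5 of 8 did (62.5%). A match describes the letters only.

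The values are FPKM (fragments per kilobase of transcript, scaled for depth, a level corrected for gene length). Whole reads could be recovered from the steps between the values, which gave 11353870 to 17903154 reads per library over the listed genes. The median member had 5066 reads in a library, and single values ran from 3 to 31489 reads. The deposited FPKM had been scaled so that the median gene lay at the same level in all libraries, while their totals ran from 554130 to 900138. NC 2 (replicate 2 of the NC group) had the fewest reads and the highest total. This library stood apart for the members, so the comparisons are given with and without it.

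Together the 90 members made up a few percent of the transcript level of the tendon. Their share of total FPKM was 7.22%, 9.65%, 6.89% and 7.31% in NC 1 to NC 4, and 6.81%, 8.34%, 7.35% and 7.82% in the 4 libraries of the 0 h p.r. group. The group means were 7.77% ± 1.27 (SD, n = 4) in NC and 7.58% ± 0.653 (SD, n = 4) at 0 h p.r., and the groups overlapped. NC 2 was the highest library and 0 h p.r. 1 the lowest. Without NC 2 the NC mean was 7.14% ± 0.219 (SD, n = 3), and 0 h p.r. 1 still lay below all of the 3 remaining NC libraries.

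Mitochondrially encoded transcripts were also highest in NC 2, with 36.2% of total FPKM, and took 19.0% to 25.6% in the other 7 libraries. Among these 7, the 2 libraries with the highest member share, 0 h p.r. 2 and 4, had the lowest mitochondrial shares, 20.4% and 19.0%. With them taken out of the total, the members' share was 15.1% in NC 2 and 9.14% to 10.5% in the other 7 libraries. Of the recovered reads, in which short genes weigh less, the members took 5.76% in NC 2 and 3.28% to 3.79% in the others. On each of these scales NC 2 lay above the other 7 libraries, and the 0 h p.r. group overlapped with the remaining NC libraries.

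**Figure D1:**
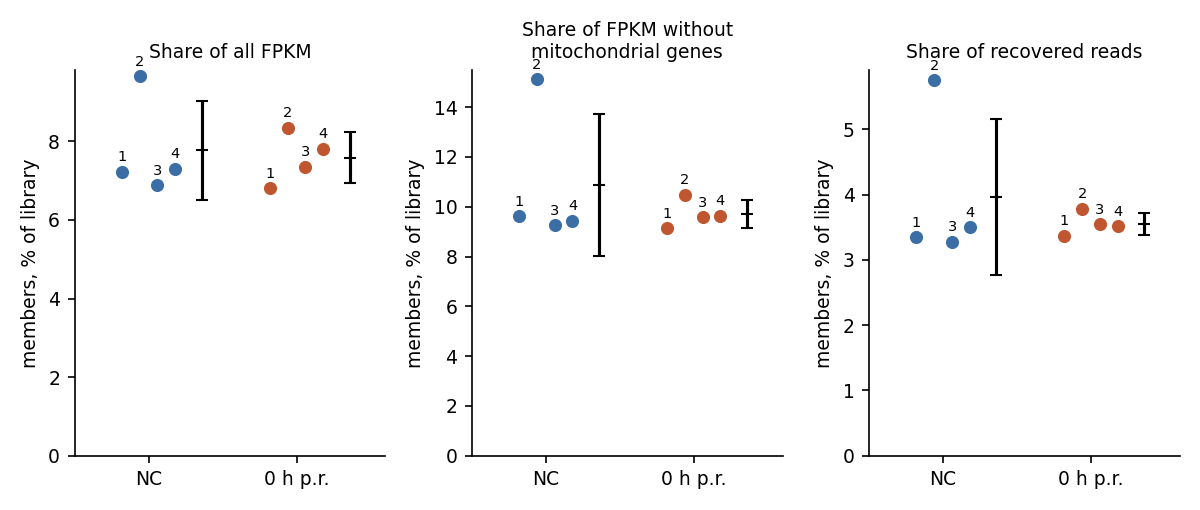
Share of the 90 members in each library (points, numbered by replicate), as a percentage of all FPKM, of FPKM without mitochondrially encoded genes, and of recovered reads, with the group mean and SD (n = 4) beside the points. NC 2 is the highest point in every panel. The 0 h p.r. points overlap with the other NC libraries, and 0 h p.r. 2 lies above NC 1, NC 3 and NC 4 in every panel.

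No member passed both thresholds, an adjusted p under 0.05 and a fold of at least 2, when 0 h p.r. was compared with NC over all 8 libraries by limma on log2(FPKM + 0.5) (0 of 90). By voom, the limma method for read counts, on the recovered reads it was also 0, against 3.02% of all genes. Over all 13863 genes tested, 374 passed (2.70%). At the adjusted p alone, 1 member passed, the copy Rps19l2, which was lower at 0 h p.r., against 5.72% of all genes, and the same member was the one with an unadjusted p under 0.05. The median log2 fold change of the members was -0.02, with quartiles of -0.07 and 0.03, beside -0.00 over all genes, and 84 of the 90 values lay between -0.25 and 0.25. The groups failed to overlap for 1 member, against 15.6% of all genes.

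The library NC 2 dominated the spread within the NC group. Its level of the median member was 846 FPKM, where NC 1, NC 3 and NC 4 had 387, 393 and 407 FPKM and the 0 h p.r. libraries had 498, 481, 462 and 447 FPKM. The median member was 2.12-fold higher in NC 2 than the mean of the other NC libraries, with quartiles of 2.00 and 2.26. NC 2 was the highest of the 8 libraries for 81 of the 90 members, and for 24.5% of all tested genes. The 9 exceptions were Rpl10l, Rpl39l, Rpl3l, Rpl7l1, Rps19, Rps4y2, Rps6, Rps9 and one of the Rpl7a rows.

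Beside this stands a relation of NC 2 to gene length that was not limited to the members. Among tested non-members shorter than 500 bases the median log2 difference of NC 2 from the other NC libraries was 0.39, and among those of at least 5000 bases it was -0.49. In every length class the median of the members lay above that of the non-members. It was 1.17 for the 28 members under 500 bases and 1.05 for the 39 members from 500 up to 1000 bases. The classes from 1500 bases upward held only 4, 3, 2 and 1 members. The longest member, Rpl7 with 5151 bases, was at 390 FPKM in NC 2 and at 170 to 179 FPKM in the other NC libraries. Among the 197 non-members under 1000 bases with a mean of at least 100 FPKM, the median difference was 0.70, and among the 48 members of that kind it was 1.11. With the length trend removed in each library, NC 2 still had a median member difference of 0.65. The part of length, of the mitochondrial share or of RNA quality in the level of NC 2 was not tested.

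**Figure D2:**
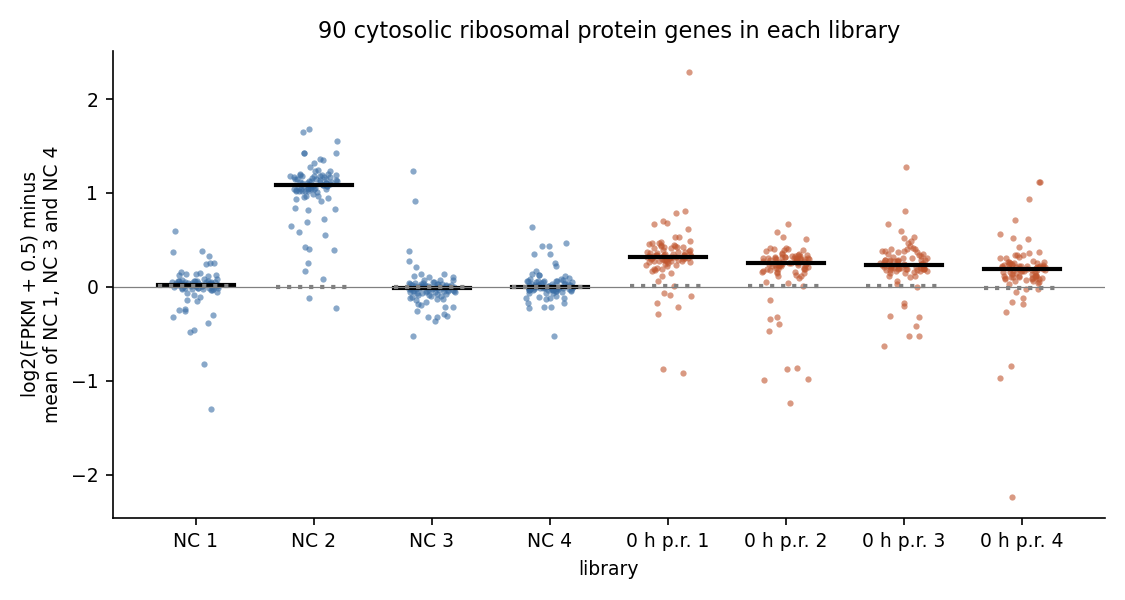
Each point is 1 of the 90 members in 1 library, as log2(FPKM + 0.5) minus the mean of NC 1, NC 3 and NC 4; black bars are the medians of the members and dotted grey bars the medians of all tested genes. The medians of the members are 1.09 in NC 2 and 0.32, 0.25, 0.23 and 0.19 in the 0 h p.r. libraries, while those of all genes stay at zero.

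**Figure D3:**
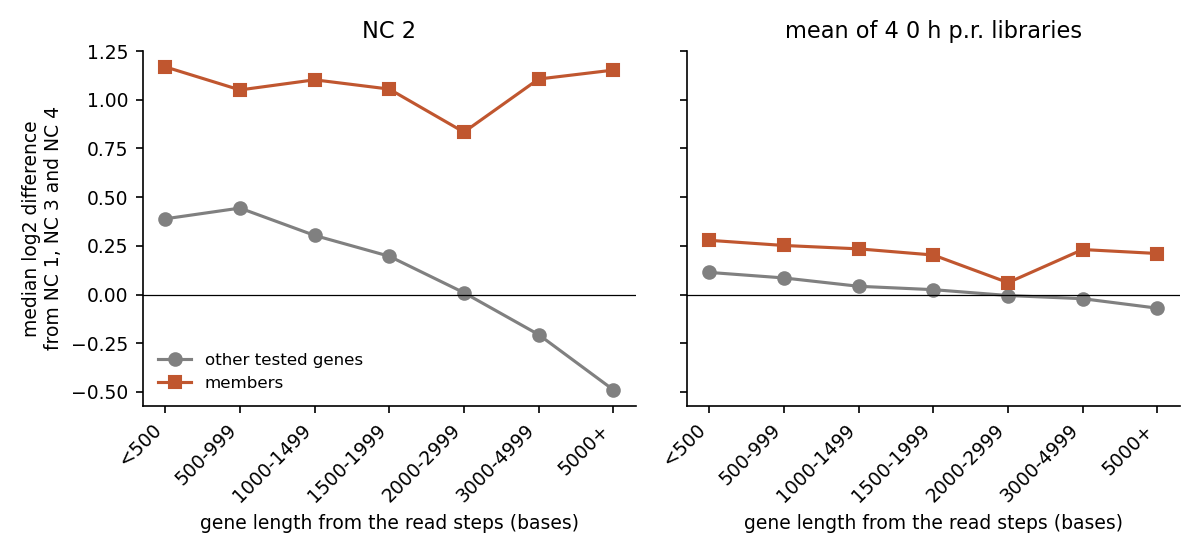
Median log2 difference from NC 1, NC 3 and NC 4 by length class, for members (squares) and other tested genes (circles), in NC 2 and in the mean of the 0 h p.r. libraries. Other genes in NC 2 are at 0.39 in the shortest class, at 0.44 in the next and at -0.49 in the longest. The medians of the members lie above them in every class of both panels.

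Without NC 2, the members were slightly higher at 0 h p.r. on the deposited scale. The median log2 fold change was 0.24 (quartiles 0.19 and 0.30), a fold of 1.18, beside 0.01 over all genes, and 83 of the 90 members had a value above 0, against 51.4% of all genes. In 64 of the 90 members every 0 h p.r. library lay above NC 1, NC 3 and NC 4, against 12.9% of the 13747 genes tested without NC 2. In 1 member, Rps19l2, every 0 h p.r. library lay below them, against 11.8% of the genes. At an unadjusted p under 0.05, 46 members were higher, against 12.9% of the genes. None of the 90 members passed an adjusted p under 0.05 by limma without NC 2, where 4.98% of the genes did. By voom 1 member passed without NC 2, against 5.02% of the genes. Leaving out each library in turn was planned. The count of 64 rests on setting NC 2 apart, which was done after its values were seen. The members were chosen with earlier results of these data known, and NC 2 is set apart here because of its values.

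This count depended on the scaling of the libraries. When every library was scaled to the same total FPKM, 4 of the 90 members, in place of 64, lay above the 3 NC libraries in all 0 h p.r. libraries, beside 4.84% of all genes. When mitochondrially encoded genes were kept out of that total, 2 members did, beside 4.44% of all genes. These scalings moved the median of all genes to -0.14 and -0.18. The members' medians were 0.08 and 0.03, which is 0.22 above the median of all genes in both cases, as compared with 0.23 on the scale of the deposited values. With the length trend removed, 45 members lay above the 3 NC libraries, beside 13.0% of all genes, and the median log2 fold change of the 90 members was 0.19.

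**Figure D4:**
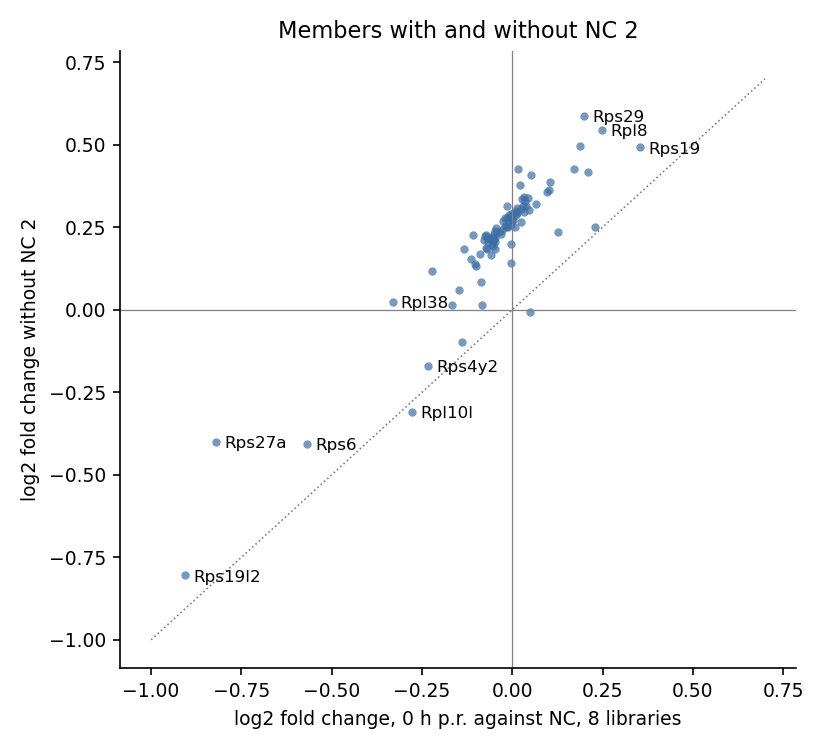
Log2 fold change of each member at 0 h p.r. against NC, with all 8 libraries (horizontal) and without NC 2 (vertical), where the dotted line marks equal values. Most members lie near 0 on the horizontal axis and near 0.24 on the vertical axis, and Rps19l2, Rps6 and one row of Rps27a lie apart at the lower left.

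By subunit, the 45 large subunit rows had a median log2 fold change of -0.03 over all libraries and 0.24 without NC 2, and the 29 small subunit rows had -0.00 and 0.27. Without NC 2, every 0 h p.r. library was above the NC libraries in 33 of the 45 large subunit rows and in 23 of the 29 small subunit rows, against 12.9% of all genes. These counts are on the deposited scale, on which the count over all members was 64, and not 4 or 2 as with equal totals. The median fold of NC 2 over the other NC libraries was 2.16 and 2.13 in these 2 classes, and 1.78 among the 13 paralog or copy rows.

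The members followed one another closely from library to library. The correlation of a member with the median member over 8 libraries had a median of 0.98, and 72 of 90 were above 0.9, against 2.60% of all tested genes. Over the 7 libraries without NC 2 the median was 0.91, and 50 of 90 were above 0.9, against 4.34%. The median member was computed from these same 90 members, so part of their lead over other genes is built in. These correlations also share depth and scaling among all genes of a library and are given as a description. The level of the median member was then taken out of each library. The SD of a member's log2 values that remained over 8 libraries (its residual SD) had a median of 0.07. Before this step the median SD of the members was 0.38, beside 0.30 over all tested genes. Without NC 2 it was 0.17, beside 0.26 over all tested genes. For 51 members the residual SD was below 0.1. Rpl5, a large subunit protein that binds the 5S ribosomal RNA, was among these, with an SD of 0.03 and with 770, 1621, 758 and 777 FPKM in NC and 983, 917, 875 and 860 FPKM at 0 h p.r.

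Within a library, the SD of the members' log2 difference from the NC mean was 0.18 to 0.25 in the NC libraries and 0.24 to 0.38 at 0 h p.r. Over all tested genes the same SD was 0.30 to 0.43 in NC and 0.56 to 0.66 at 0 h p.r. The difference was taken from the mean of the NC libraries themselves, so the NC libraries lie closer to it by construction.

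The most abundant members per length were Rps14, Rpl41, Rplp0, Rpsa and Rps23. Rps14, which encodes a protein at the platform of the small subunit, had 1392, 3048, 1372 and 1473 FPKM in NC and 2035, 1728, 1660 and 1631 FPKM at 0 h p.r. Its NC 2 value was the highest, and the 4 run libraries lay between NC 2 and the other NC libraries. The log2 fold change was 0.04 ± 0.31 (SE, adjusted p = 0.963). Rpl41, the smallest of these proteins, had group means of 1766 ± 856 and 1644 ± 221 FPKM (SD, n = 4), and its log2 fold change was -0.01 ± 0.32 (SE, adjusted p = 0.992).

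The stalk proteins, which bind elongation factors at the large subunit, and Rpsa, a small subunit protein also known as a laminin receptor, showed the same order of libraries. Rplp0 had 1403, 2806, 1468 and 1385 FPKM in NC and 1756, 1588, 1634 and 1515 FPKM at 0 h p.r. Rplp1 had 850, 1893, 803 and 821 FPKM in NC and 1046, 930, 1075 and 958 FPKM at 0 h p.r. Rpsa had 1323, 2697, 1461 and 1384 FPKM in NC and 1569, 1509, 1560 and 1473 FPKM at 0 h p.r. In all 3 genes NC 2 lay highest and the run libraries lay above the other NC libraries. Their log2 fold changes over all libraries were -0.05, -0.02 and -0.10, and without NC 2 they were 0.19, 0.28 and 0.14. Rplp2 was not analysed here.

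The lowest members per length were Rpl39l, Rpl35a, Rpl10l, Rpl38 and one Rpl7a row. Rpl39l had 0.331 to 2.00 FPKM, from 3 to 18 reads, and Rpl35a had 2.05 to 4.24 FPKM, from 9 to 19 reads. Rpl38 had 5.57, 22.0, 7.87 and 11.1 FPKM in NC and 6.95, 6.18, 10.3 and 9.32 FPKM at 0 h p.r., and its log2 fold change of -0.33 ± 0.37 (SE, adjusted p = 0.659) was among the 5 lowest. Rpl35a and Rpl38 encode core proteins of the large subunit, yet lay far below the median member. Ribosomal protein genes have many near-identical copies in the genome, among which reads can be split or lost in counting, so the levels of single rows are uncertain.

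A small group of members did not follow the others, and 15 had a residual SD above 0.3. Rps19l2 is a copy of Rps19, a small subunit protein needed to mature the small subunit RNA. It had 235, 237, 125 and 198 FPKM in NC and 97.4, 98.8, 116 and 100 FPKM at 0 h p.r. The groups did not overlap, and NC 3 lay nearest to the run libraries. Rps19l2 fell by 0.91 on the log2 scale (SE 0.21, adjusted p = 0.0391 by limma). Leaving out each library in turn gave an adjusted p of 0.00898 to 0.117, and NC 3 was the one library without which it stayed under 0.05. Scaling to equal total FPKM gave a log2 fold change of -0.90 with an adjusted p of 0.0877. Scaling to equal totals without mitochondrially encoded genes gave -1.01 with an adjusted p of 0.0336, past both thresholds.

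Rps19 itself had 94.4, 166, 124 and 122 FPKM in NC and 135, 180, 180 and 146 FPKM at 0 h p.r. The groups overlapped through NC 2 only, and the log2 fold change of 0.35 ± 0.19 (SE, adjusted p = 0.306) was the highest of the members. Summed, both rows gave 329, 403, 249 and 320 FPKM in NC and 232, 279, 295 and 246 FPKM at 0 h p.r., with a residual SD of 0.30 against 0.33 and 0.58 for the single rows. Whether reads were exchanged between these rows was not tested.

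Rps27a encodes a fusion of ubiquitin with a small subunit protein, and its 2 rows shared the signal in varying proportion. The row ENSRNOG00000034246 had 216, 1225, 499 and 519 FPKM in NC and 671, 163, 332 and 195 FPKM at 0 h p.r., and its log2 fold change was -0.82 ± 0.57 (SE, adjusted p = 0.45). The row ENSRNOG00000004426 had 1126, 1763, 776 and 748 FPKM in NC and 959, 1254, 1202 and 1282 FPKM at 0 h p.r. The first row held 11.5% to 41.1% of their sum over the 8 libraries. The sum was 1342, 2988, 1275 and 1267 FPKM in NC and 1630, 1416, 1534 and 1476 FPKM at 0 h p.r. Its residual SD was 0.07, as compared with 0.25 and 0.84 for the rows alone, so the sum followed the other members where its rows did not.

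Rps6, the small subunit protein that is phosphorylated downstream of mTOR, was listed at a low level with a wide spread. It had 27.8, 108, 164 and 72.5 FPKM in NC and 66.2, 34.9, 55.6 and 57.4 FPKM at 0 h p.r., with NC 1 the lowest and NC 3 the highest. The log2 fold change was -0.57 ± 0.48 (SE, adjusted p = 0.543). Rps9, a small subunit protein at the entry of the mRNA channel, had 35.6, 42.7, 55.0 and 63.5 FPKM in NC and 64.8, 24.7, 34.5 and 109 FPKM at 0 h p.r. Its run libraries held both the lowest and the highest value. Rpl17 of the large subunit had 366, 754, 367 and 713 FPKM in NC and 460, 413, 596 and 402 FPKM at 0 h p.r., with NC 4 far above NC 1 and NC 3.

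Among the members with the highest log2 fold changes, Rpl8, at the peptidyl transferase centre, had 20.1, 44.5, 19.0 and 18.9 FPKM in NC and 26.3, 24.0, 24.2 and 42.6 FPKM at 0 h p.r., where replicate 4 stood high. Its log2 fold change of 0.25 ± 0.30 (SE, adjusted p = 0.691) did not pass. Rps29 was at 5.58 to 21.8 FPKM from 14 to 37 reads, and its log2 fold change was 0.20 with NC 2 and 0.59 without it.

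**Figure D5:**
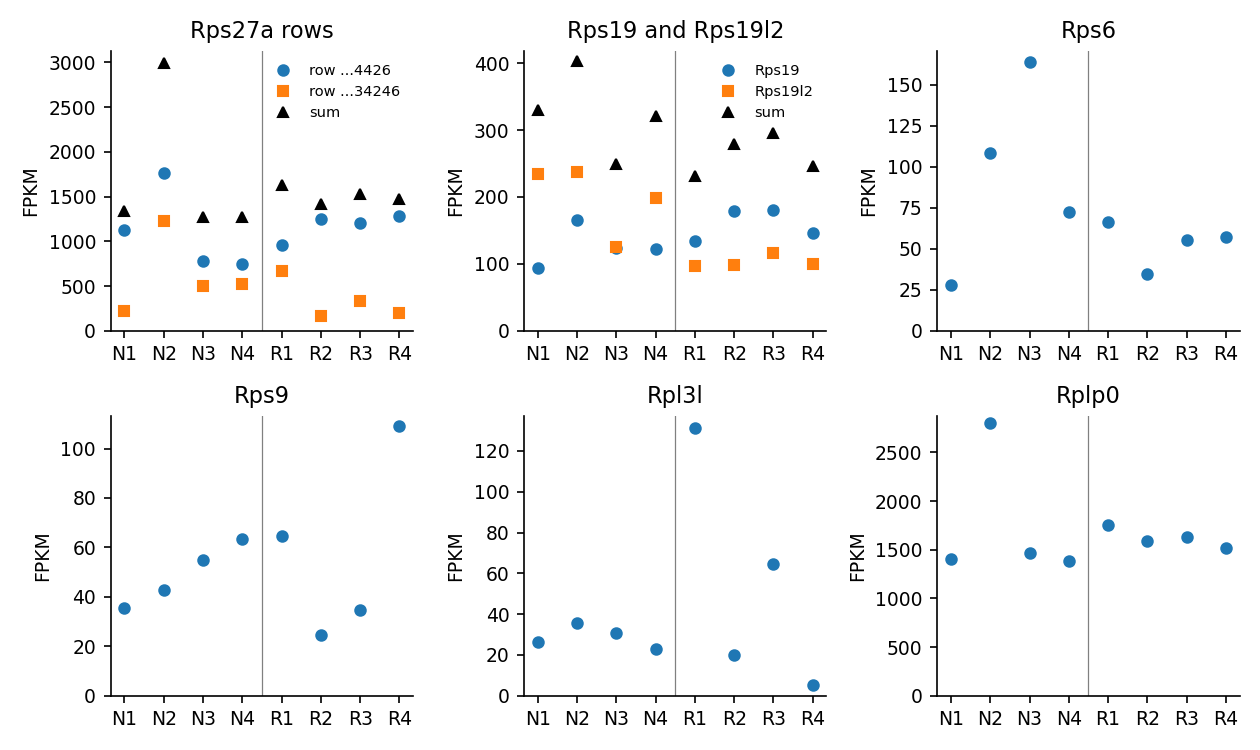
FPKM in each library (N1 to N4 for NC, R1 to R4 for 0 h p.r.) of 5 departing members or pairs, and of Rplp0, which followed the others; triangles are sums of both rows. The Rps27a rows take varying parts of their sum, and the sum, like Rplp0, is highest in N2 and higher in R1 to R4 than in N1, N3 and N4, and Rpl3l spreads from 5.22 to 131 FPKM among the run libraries.

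Several ribosomal proteins have a paralog that can take their place, and the ratio of paralog to parent was compared between groups by an exact two-sided permutation test over 70 assignments, whose smallest p is 0.0286. In 6 pairs both genes had 1 row, and the adjusted p was 0.651 to 0.886. After adjustment over the 6 pairs, 1 ratio on its own could not have come under 0.05 with this number of libraries. Rpl26l1 and Rpl39 were not analysed here, so their pairs gave no ratio.

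Rpl3l is the form of Rpl3 found in skeletal and heart muscle. It had 26.5, 35.7, 30.6 and 22.7 FPKM in NC and 131, 20.0, 64.8 and 5.22 FPKM at 0 h p.r. The run libraries held both the highest and the lowest of all values. The summed FPKM of 10 skeletal muscle markers moved with it, at 5328, 8605, 8532 and 5627 in NC and 38264, 6599, 17231 and 1182 at 0 h p.r. Per 1000 FPKM of these markers, Rpl3l was at 3.03 to 4.98 in all 8 libraries. The part of muscle content in its level was not tested. The log2 ratio to Rpl3 was -3.55 ± 0.344 in NC and -3.33 ± 2.04 at 0 h p.r. (SD, n = 4, exact permutation p = 0.886).

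Rpl7l1, a paralog of Rpl7 that takes part in ribosome assembly, was not raised in NC 2. It had 49.1, 47.7, 41.4 and 44.7 FPKM in NC and 56.4, 55.9, 53.6 and 48.6 FPKM at 0 h p.r., where replicate 4 overlapped with NC 1. Its log2 fold change was 0.23 ± 0.10 (SE, adjusted p = 0.238), and 0.25 without NC 2. Rpl22l1 had 65.2 to 143 FPKM, Rpl36al 283 to 652 FPKM and Rps27l 37.0 to 71.0 FPKM, each highest in NC 2. The log2 ratio of Rps27l, a paralog induced by p53, to Rps27 was -3.59 ± 0.207 in NC and -3.40 ± 0.152 at 0 h p.r. (SD, n = 4, exact permutation p = 0.229, adjusted p = 0.651). Rpl10l, known from the testis, was at 3.75 to 10.4 FPKM, and its log2 ratio to Rpl10 ran from -8.01 to -6.36 over the 8 libraries.

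Other genes of translation and of ribosome synthesis were compared through lists. Of 75 mitochondrial ribosomal protein genes tested, 0 were higher and 1 was lower at an adjusted p under 0.05, namely Mrpl10, a smaller share than the 5.72% of all genes called in either direction. Its values were 15.3, 18.8, 14.2 and 15.4 FPKM in NC and 9.63, 11.3, 10.8 and 12.1 FPKM at 0 h p.r. It fell by 0.52 on the log2 scale (adjusted p = 0.0463), with 0.0407 to 0.119 when each library was left out. The median log2 fold change of this list was -0.09 with NC 2 and 0.04 without it, and NC 2 was 1.41-fold above the other NC libraries.

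Further TOP mRNAs outside the rule were listed separately. For 10 tested genes, which include Fau, a fusion of a ubiquitin-like part with a small subunit protein, NC 2 was 1.90-fold above the other NC libraries at the median. Their median log2 fold change was -0.03 with NC 2 and 0.21 without it, and 0 passed in either direction. Of 10 elongation factor genes 0 passed, with medians of -0.02 and 0.06. Among them Eef2, which moves the ribosome along the mRNA and is itself a TOP mRNA, had 996, 1423, 1006 and 912 FPKM in NC and 1117, 859, 921 and 899 FPKM at 0 h p.r.

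Of 24 initiation factor genes, 1 was higher and 0 were lower. Eif4a1, the helicase that unwinds mRNA leaders, had 146, 172, 127 and 148 FPKM in NC and 225, 283, 252 and 200 FPKM at 0 h p.r. It rose by 0.69 ± 0.15 (SE, adjusted p = 0.0368), and with each library left out the adjusted p ran from 0.0243 to 0.116. Of 48 genes of ribosome biogenesis, 2 were higher and 0 lower, again a smaller share than over all genes. Gnl3, nucleostemin, had 14.2, 16.1, 13.8 and 15.8 FPKM in NC and 27.0, 35.0, 30.7 and 22.0 FPKM at 0 h p.r., and rose by 0.90 ± 0.15 (SE, adjusted p = 0.0122). Nolc1, a nucleolar chaperone, rose by 0.57 ± 0.12 (SE, adjusted p = 0.0322), and with each library left out the adjusted p ran from 0.0111 to 0.106. The median log2 fold change of the biogenesis list was 0.18, and NC 2 was 1.09-fold above the other NC libraries in it.

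Among 27 genes that control ribosomal protein synthesis, 1 was higher and 0 were lower, also a smaller share than the 5.72% over all genes. Myc, a transcription factor that drives ribosome synthesis, had 14.5, 12.7, 14.7 and 13.0 FPKM in NC and 52.3, 65.4, 59.7 and 33.6 FPKM at 0 h p.r. The groups did not overlap, and Myc rose by 1.87 ± 0.20 (SE, adjusted p = 0.00181). Larp1, which binds TOP mRNAs, had 23.3, 12.3, 23.3 and 22.9 FPKM in NC and 31.4, 28.7, 28.8 and 20.7 FPKM at 0 h p.r., with NC 2 the lowest library. Its log2 fold change was 0.44 ± 0.23 (SE, adjusted p = 0.289). Ddit4, an inhibitor of mTOR, had a log2 fold change of 0.23 ± 0.17 (SE, adjusted p = 0.481), and Deptor, another mTOR inhibitor, had -0.61 ± 0.16 (SE, adjusted p = 0.0547).

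With all libraries scaled to equal total FPKM, the adjusted p was 0.0854 for Gnl3, 0.298 for Nolc1, 0.130 for Eif4a1 and 0.308 for Mrpl10, so that none of these 4 calls held, and it was 0.00786 for Myc, whose call held. Without NC 2, the genes of the control list that passed were Myc and Rheb, an activator of mTOR (adjusted p = 0.0176), which were higher, and Deptor (0.0234), the translation repressor Eif4ebp2 (0.0364) and the mTOR complex subunit Mlst8 (0.04997), which were lower. Of the initiation factors Eif4a1 and Eif1 passed, and of the biogenesis genes Gnl3 and Nolc1, all higher. Over all genes 4.98% passed in this setting.

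Among the extremes of the lists that did not pass, Nhp2, a protein of small nucleolar particles, had 1.01, 0.758, 0.409 and 0.605 FPKM in NC and 0.452, 41.0, 38.5 and 0.499 FPKM at 0 h p.r. Mrpl53 had 14.4 and 25.4 FPKM in replicates 2 and 4 of the run group, and at most 1.25 FPKM in the other 6 libraries. Mrpl36 had 12.7 FPKM in NC 2 and at most 2.12 FPKM elsewhere. The log2 fold changes of Eef1e1, Fau, Eif4b, Nap1l1 and Polr1a were 0.40, 0.23, -0.20, -0.17 and -0.16, and none passed.

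The tissue was checked by summed FPKM of marker lists. The 10 tendon markers lay at 7571 to 13115 in NC and at 10769 to 22356 at 0 h p.r. Adipocyte markers lay at 3356 to 6929 in NC and at 1130 to 2484 at 0 h p.r., without overlap. Bone markers ran from 303 to 469 in NC and from 560 to 2169 at 0 h p.r., and cartilage markers from 16.7, in NC 2, to 97.71 in NC and from 97.74 to 381 at 0 h p.r., neither with overlap. Erythroid markers ran from 768 to 2005 and from 618 to 1642. Macrophage markers lay at 352 to 719 and 433 to 1029, and endothelial markers at 334 to 365 and 278 to 391. Their part in the members' values was not tested.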

How the data were processed

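RNA-seq of polyadenylated RNA from rat Achilles tendon was analysed (4 NC and 4 0 h p.r. libraries, grouped by their titles). Per the labels and the submitters' processing notes, the authors used stranded libraries, HISAT2 2.1.0, featureCounts 1.6.3, DESeq2 1.30.1 and the build Rnor_6.0. They deposited FPKM values, scaled between libraries, next to their own fold changes and p-values, which were not used. Whole reads and gene lengths were recovered from the steps between FPKM values for 15590 of 15590 rows (tolerance 0.01 reads; 99.7% of 3000 simulated rows exact). FPKM values depend on gene length and, through the total, on abundant transcripts.

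Genes with at least 0.5 FPKM in at least 4 libraries were tested (13863) on log2(FPKM + 0.5) with limma 3.58.1 in R 4.3.3 (eBayes with trend, two-sided, Benjamini-Hochberg over all genes tested). Fold changes are on that scale and understate the change of low genes. On simulated data with changes of 4-fold, 97.4% of the changed genes were called. Ratios were tested exactly with scipy 1.17.1, and figures were drawn with matplotlib. Floors and reads cover counting error only. Promoters came from RefSeq (GRCr8), matched by symbol.

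The members and gene lists were chosen with earlier results of these data known. Named members were those past the threshold, the 5 highest and 5 lowest by fold change and by level, the 3 of largest spread within a group, the stalk genes, Rpsa, Rps6, Rps27a and the paralog pairs; of each other list the largest changes, and Myc, Larp1 and Ddit4. Rpl5, Rpl17 and Rps9 were added after their values were seen. Some genes are counted but not reported by name here. Alternatives covered pseudocount, filter, scaling, replicate block, array weights, voom, gene length and leaving out each library.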

Additional observations from a re-analysis of the deposited data

Results flagged for a closer look

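In groups of 4 libraries, a value was singled out when its gap to the nearest library exceeded a fixed part of the group's range (Dixon's test). Chance singles out about 1 in 20 groups. NC 2 was singled out for the members' share of total FPKM (9.65%), for their share without mitochondrially encoded genes (15.1%), for their share of recovered reads (5.76%) and for their median log2 difference from the NC mean (0.81). Of the 90 members, 65 had NC 2 far above the other NC libraries, against 5.35% of all tested genes, and 1 had another NC library apart. In the 0 h p.r. group, 8 members had a library apart, against 5.40% of all tested genes. The log2 ratio of Rps27l to Rps27 was -3.90 in NC 2, lower than in the other NC libraries. What sets NC 2 apart was not tested.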

How the results depend on the processing

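No member passed both thresholds except Rps19l2, which passed without NC replicate 3 and when totals without mitochondrially encoded genes were made equal (1 member each), so that leaving out each library gave 0 to 1 members. At an adjusted p under 0.05 alone, 1 member passed over all libraries and leaving out each library gave 0 to 1. It was 0 with the replicate block, 0 with equal total FPKM, and 2 with array weights, where Rps19 (0.54, adjusted p = 0.0437) joined Rps19l2 and 14.9% of all genes were called; the cause was not tested. The replicate numbers did not pair the libraries, since deviations of same-numbered libraries correlated at -0.14, -0.07, 0.07 and 0.01; the block left Rps19l2 at an adjusted p of 0.114, Gnl3 at 0.0512, Nolc1 at 0.122, Eif4a1 at 0.106 and Mrpl10 at 0.122. The median log2 fold change of the members ran from -0.12 to 0.24 when each library was left out, and NC 2 gave the upper end. With array weights and all 8 libraries it was 0.20, and 50 members changed sign. The difference in the share of total FPKM, -0.187 percentage points, ran from -0.479 to 0.441 in the same way. The count of members above NC 1, NC 3 and NC 4 in every 0 h p.r. library was 64 as listed and 4 with equal totals. It was 2 with equal totals without mitochondrially encoded genes, and 45 with the length trend removed. All of these counts rest on setting NC 2 apart after its values were seen. The length setting and all joint settings without NC 2 were added after seeing the data. The 6 named genes called with all libraries kept their call in 85 of 126 settings and lost it in 41, of which 11 were for Mrpl10, 9 each for Eif4a1, Nolc1 and Rps19l2, 3 for Gnl3 and 0 for Myc; 0 of these values changed sign. Among the uncalled genes followed through these settings, Deptor passed in 4 settings and Eef1e1 and Rps19 in 1 each. Rheb, Eif4ebp2, Mlst8 and Eif1, outside this count, passed without NC 2. Low members such as Rpl39l, with 3 to 18 reads, are limited by depth.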
